A study of Homo sapiens with 4 samples.

Results

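Alu elements are short interspersed repeats of primates that descend from 7SL RNA, the RNA core of the signal recognition particle. They carry an internal promoter for RNA polymerase III and can also be read through from genes by RNA polymerase II. AluJ is the oldest branch, AluS came next and AluY is the youngest, and AluYa5 and AluYb8 are among its branches that have moved most recently in humans. DNA methylation and repressive chromatin hold most copies silent, and Alu RNA is bound by SRP9 and SRP14 and edited by ADAR enzymes.

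The loci described here are those of the deposited table of transposable element (TE) counts whose family name begins with AluY or AluJ. They number 41259 of 261609 TE loci and carry 25 family names of 655. The names were read from the first field of each feature, a position number from the second and a locus number from the third. Family names were taken as deposited, and the meaning of the position and locus numbers was not stated in the sources used here. Of the 25 names, 24 begin with AluY and 1 with AluJ. The comparison of younger with older Alu is therefore one of a large set with a single name.

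The counts come from 5′ single-cell RNA sequencing of polyadenylated RNA with the 10x Genomics chemistry, in H1299, an established line of human non-small cell lung carcinoma, and HCT116, an established line of human colorectal carcinoma, both at passage 5 to 10. Cells of each line received either DMSO, the solvent, or DAC (decitabine, an inhibitor of DNA methyltransferases) at 500 nM for 72 h together with SB939 (an inhibitor of histone deacetylases) at 500 nM for 18 h, called DAC+SB. Fresh medium, with the compounds where they were used, was given every 24 h. Each of the 4 combinations was 1 library, so no test was made and no difference between libraries has a replicate check. Intervals are exact at 95% and cover counting error only.

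The libraries held 3578 to 4327 cells and 38927267 to 64524196 gene and TE counts, with HCT116 DAC+SB the shallowest. Median counts per cell were 17369.5 and 15784.5 in the DMSO and DAC+SB libraries of H1299, and 16257.5 and 8449 in those of HCT116, the order used for every set of 4 values. The median mitochondrial share was 8.33%, 8.87%, 15.8% and 18.6%. Cell barcodes found in more than 1 library numbered 131. As a check of the labels, 8 epithelial genes chosen for HCT116, such as EPCAM and CDH1, summed to 0.480, 18.9, 162 and 89.1 counts per 1000000 gene and TE counts (CPM), and 7 mostly mesenchymal genes chosen for H1299, such as VIM and AXL, summed to 3399, 1459, 252 and 351 CPM, so each list was higher in its own line.

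The locus numbers carry no coordinates, so no AluY or AluJ copy is printed.

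Which names were listed differed between libraries. Of the 25 names, the H1299 libraries listed 10 with DMSO and 22 with DAC+SB, and those of HCT116 listed 11 and all 25. Names listed in all 4 libraries numbered 6: AluYa5, AluYb8, AluYd8, AluYe5, AluYi6 and AluYk4. Names listed in neither DMSO library numbered 11: AluJb_short_, the family named AluY itself, AluYa8, AluYc, AluYe6, AluYf1, AluYh7, AluYh9, AluYj4, AluYk11 and AluYk12. H1299 DMSO further did not list AluYh3, AluYk2, AluYk3 and AluYm1, and HCT116 DMSO did not list AluYb9, AluYc3 and AluYg6. The share of all TE families unlisted in these libraries was not computed, so being unlisted is not read as particular to these names. The 11 names listed in neither DMSO library held 74.5% of the AluY and AluJ counts of H1299 DAC+SB and 77.4% of those of HCT116 DAC+SB. The lowest listed AluY or AluJ class (a family with a position number) had between 22 and 62 counts in the 4 libraries, and over all TE classes the lowest was 20. Why a name is unlisted was not stated in the sources used here, so an unlisted name was not read as 0 and no ratio was computed for it. AluY copies resemble each other in sequence, and how reads that match several copies were assigned was not stated either. This leaves family and locus counts uncertain. The TE counts are labelled TSS (transcription start site), but how a start was assigned to a copy was not stated. Whether a count started at an Alu copy or came from a gene that contains one could not be checked without coordinates.

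AluJ was almost unlisted. AluJb_short_ was its single name, was listed in HCT116 DAC+SB alone, and had 138 counts there, or 3.55 (2.98 to 4.19) CPM, over 54 loci. AluY names held 101888 counts in the same library, or 99.9% (99.8 to 99.9) of AluY and AluJ counts. This share sets 24 AluY names, with 99.7% of their counts at position 1, against 1 name listed at position 14 only. Unlisted AluJ names have no part in it. AluY_short_, the AluY name listed at position 14 only, had 200 counts there, or 5.14 (4.45 to 5.90) CPM. No other AluJ name was analysed here. The 3 AluJ loci with most counts were 1922997, 1922954 and 1922975, with 10, 9 and 8 counts, each in 8 cells. In all, 19 of the 54 AluJb_short_ locus numbers lay between 1922950 and 1922997, and they held 83 of the 138 counts.

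AluY counts summed to 1755, 97923, 3518 and 101888 over the listed names. In H1299 the DMSO level was 27.2 (25.9 to 28.5) CPM and the DAC+SB level 1569 (1559 to 1578) CPM. In HCT116 the DMSO level was 56.2 (54.3 to 58.1) CPM and the DAC+SB level 2617 (2601 to 2634) CPM. Both treated libraries were thus above both DMSO libraries, but the sums cover different names. Over names listed in both libraries of a line, the 9 such names of H1299 held 1429 and 11511 counts, and their log2 ratio was 3.06 (2.98 to 3.14). For HCT116 the 11 such names held 3518 and 21952 counts, which is a log2 ratio of 3.33 (3.28 to 3.38). The 12 AluS names listed in both HCT116 libraries had a log2 ratio of 3.08 (3.07 to 3.09), and in H1299 AluSq10, the single AluS name listed in both, was at 0.85 (0.65 to 1.05), or 2.01 over its shared class. 7SLRNA, the TE name of the Alu ancestor, had 585, 470, 1000 and 597 counts, and its log2 ratio was -0.27 (-0.45 to -0.09) for H1299 and -0.06 (-0.21 to 0.09) for HCT116. The 7SL level was thus not higher with DAC+SB in either line. BCYRN1, the gene of BC200 RNA, a neuronal RNA derived from an Alu monomer, had 103, 167, 70 and 33 counts, so that its log2 ratio was 0.74 (0.38 to 1.11) for H1299 and -0.40 (-1.04 to 0.22) for HCT116.

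**Figure D1:**
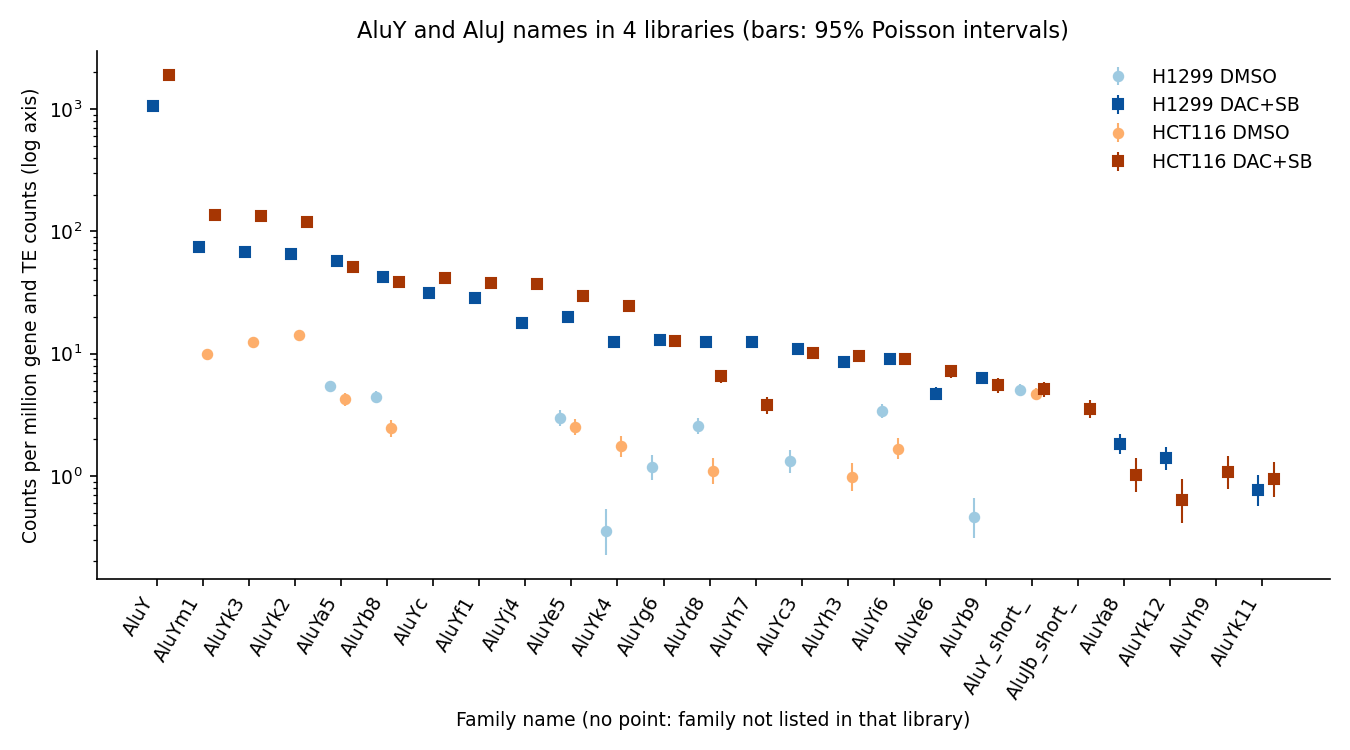
Levels of the 25 AluY and AluJ names in the 4 libraries, in CPM on a log axis, with 95% Poisson intervals for counting error. A missing point is a name not listed in that library. Treated values lie above the DMSO values of the same name and line where both are listed, within counting error for AluY_short_, and the family named AluY lies highest.

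Among single names, the family named AluY was by far the most abundant, with 66728 counts in H1299 DAC+SB and 73726 in HCT116 DAC+SB. It made up 68.1% (67.9 to 68.4) and 72.4% (72.1 to 72.6) of AluY-named counts there. AluYa5 had 349, 3583, 267 and 1986 counts, which gives log2 ratios of 3.41 (3.25 to 3.57) for H1299 and 3.58 (3.40 to 3.77) for HCT116. AluYb8 had 287, 2652, 154 and 1499 counts, with log2 ratios of 3.26 (3.08 to 3.44) and 3.97 (3.73 to 4.22). Of its H1299 DMSO counts, 117 lay at position 16, which is not listed with DAC+SB, and over the shared class the H1299 ratio was 4.01. These recently mobile branches were above their DMSO level in both lines by more than counting error.

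AluYd8 had 166, 782, 69 and 254 counts, and its log2 ratios were 2.28 in H1299, or 2.57 over its shared class, and 2.57 in HCT116. AluYe5 had 193, 1254, 158 and 1147 counts, at 2.75 and 3.55. AluYi6 had 220, 567, 105 and 350 counts, at 1.41 and 2.42, or 2.10 in HCT116 over its shared class, the lowest of the names with position 1 listed in both libraries of each line. AluYk4 had 23, 784, 110 and 955 counts, at 5.14 and 3.80. The H1299 value of AluYk4 sets different classes against each other and was 1.05 over the class listed in both libraries. AluYg6, with 76, 811 and 490 counts and no listing in HCT116 DMSO, was at 3.46 in H1299 for the same reason and at 0.05 over its shared class.

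In H1299 alone a ratio could also be formed for AluYb9 (30 to 398 counts), at 3.78 (3.24 to 4.36) on the log2 scale, and AluYc3 (85 to 680 counts), at 3.05 (2.72 to 3.39). In HCT116 DAC+SB these names had 215 and 398 counts. In HCT116 alone a ratio could be formed for AluYk2 (893 to 4648 counts), at 3.07, AluYk3 (777 to 5221), at 3.43, AluYm1 (628 to 5321), at 3.77, and AluYh3 (62 to 371), at 3.27, or 4.26 without its top locus. In H1299 DAC+SB these 4 names had 4097, 4223, 4638 and 534 counts. AluY_short_, listed at position 14 only, had the lowest ratio of the names in HCT116. It had 326 counts in H1299 DMSO, was not listed in H1299 DAC+SB, and had 295 and 200 in the HCT116 libraries. Its log2 ratio of 0.13 (-0.14 to 0.39) was within counting error of 0.

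Of names that reached 100 counts in the higher library, 8 of 9 in H1299 and 10 of 11 in HCT116 were at least 4-fold higher with DAC+SB. AluYb9, AluYc3, AluYg6 and AluYk4 in H1299 and AluYd8 and AluYh3 in HCT116 reached it with DAC+SB only. The minimum thus favours high ratios among them, and the counts are a description. Over all TE families listed in both libraries the share past that fold was 22.6% in H1299 and 46.7% in HCT116. The 8 include AluYk4 and AluYg6, and over classes listed in both libraries 6 of the 9 H1299 names passed, where 17.4% of TE families did, and 10 of 11 in HCT116, where 36.9% did. Over all classes that each library lists, the median log2 ratio was 3.26 for these names against 0.59 for all families in H1299. It was 3.43 against 1.91 in HCT116. The H1299 median again includes AluYk4 and AluYg6 with unlike classes.

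The remaining names were listed with DAC+SB only. AluYc had 1973 and 1629 counts, AluYf1 1786 and 1460, AluYj4 1108 and 1448, AluYh7 780 and 147, and AluYe6 295 and 279, H1299 first. AluYa8 had 115 and 40 counts. AluYk11, AluYk12 and AluYh9 stayed under 100 counts in every library, between 25 and 87 where listed.

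AluY classes at position 1 had larger ratios than those at higher positions. Over all listed names, which differ between the libraries of a line, the share of AluY counts at position 1 was 58.7% with DMSO and 99.7% with DAC+SB for H1299, and 91.6% and 99.7% for HCT116. Over classes that both libraries of a line list it was 80.4% and 97.3% for H1299, and 91.6% and 99.1% for HCT116. All other AluY counts lay at positions 12 to 16. In H1299, the 7 position 1 classes listed in both libraries held 1031 and 9767 counts, which is a log2 ratio of 3.29 (3.20 to 3.39), with single classes between 1.90 and 4.01. The 5 classes at positions above 1 held 251 and 271 counts, at 0.16 (-0.09 to 0.41), with single classes between -0.35 and 1.05. The 2 ranges did not overlap. Of these 12 classes, 6 were at least 4-fold higher, all at position 1, and the share over all TE classes listed in both H1299 libraries was 8.70%.

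AluYa5 and AluYi6 show the same split within a name. In H1299 AluYa5 had 282 and 3514 counts at position 1 with DMSO and DAC+SB, whereas it had 67 and 69 at position 16. AluYi6 had 135 and 487 counts at position 1, 56 and 58 at position 14, and 29 and 22 at position 15. At position 14 AluYg6 had 76 counts in both H1299 libraries. AluYb8 had 117 counts at position 16 in H1299 DMSO and none listed there with DAC+SB, while at position 1 it went from 170 to 2652, a log2 ratio of 4.01.

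In HCT116, 10 position 1 classes held 3223 and 21682 counts, which is a log2 ratio of 3.44 (3.38 to 3.49), with single classes between 2.10 and 3.97. All 10 were at least 4-fold higher, which makes 10 of the 11 AluY classes at any position. Over all TE classes listed in both HCT116 libraries, also at any position, the share was 26.0%. The share over position 1 classes of all TEs was not computed. The single other class was AluY_short_ at position 14. AluJb_short_, the AluJ name, was also listed at position 14 only.

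**Figure D2:**
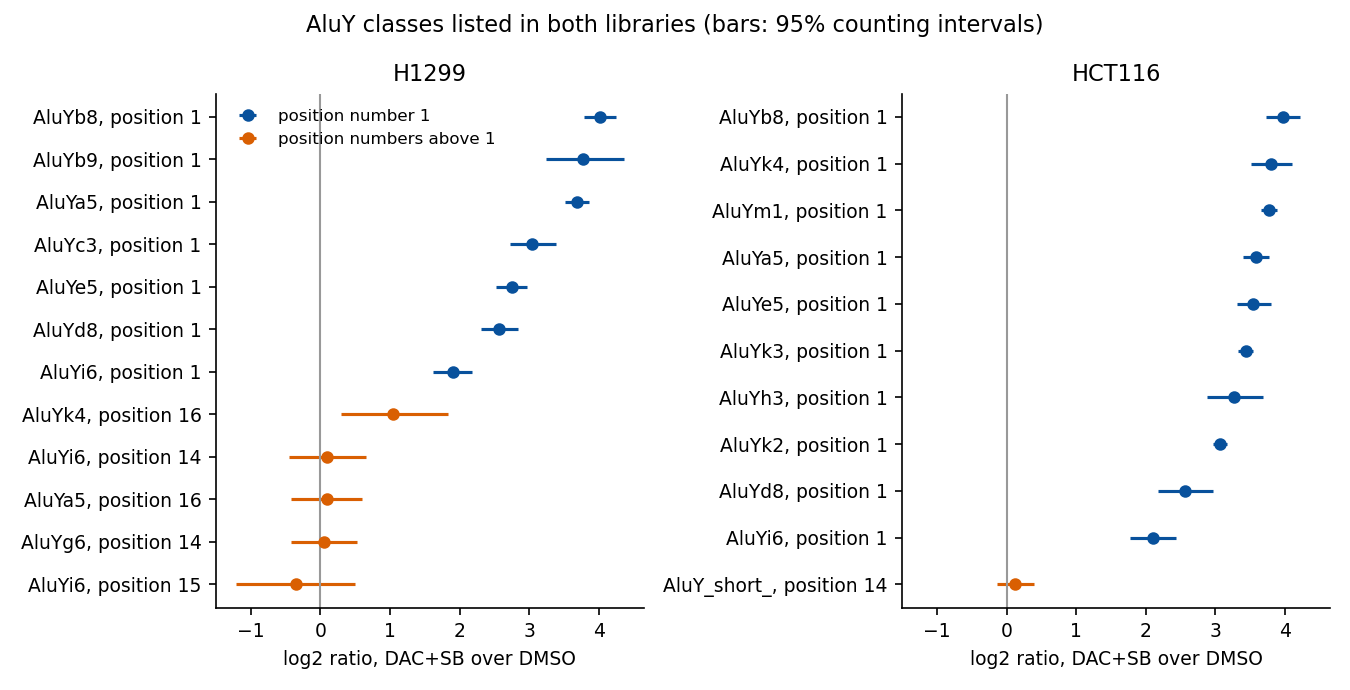
The log2 ratio of DAC+SB over DMSO for each AluY class (family and position number) that both libraries of a line list, with 95% counting intervals. Position 1 classes lie between 1.90 and 4.01 in both lines, and the 5 H1299 classes above position 1 lie between -0.35 and 1.05.

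AluY counts were spread over many loci after treatment. With every library thinned to the total of the shallowest, the number of AluY loci with a count was 542 with DMSO and 19896 with DAC+SB for H1299, and 992 and 26468 for HCT116. These numbers cover listed names only. Without thinning, 54.0% of the loci in H1299 DAC+SB and 53.0% in HCT116 DAC+SB had a single count. In H1299 the 10 top loci accounted for 27.9% (25.8 to 30.1) of AluY counts with DMSO and for 4.21% (4.08 to 4.34) with DAC+SB. In HCT116 they accounted for 21.3% (20.0 to 22.7) and 4.04% (3.92 to 4.16). These shares too cover different names and very different totals. Over classes that both libraries of a line list, the 10 top loci held 36.3% (33.6 to 39.0) of 1282 counts with DMSO and 14.6% (13.9 to 15.3) of 10038 with DAC+SB in H1299, and 21.3% of 3518 and 8.49% (8.12 to 8.86) of 21882 in HCT116. The treated share was thus lower on either basis, by less over the shared classes. AluS was spread much like AluY, with 3.83% and 3.02% of counts in its 10 top loci in the treated libraries of H1299 and HCT116. For LTR12C, the long terminal repeat with most counts there, the 10 top loci held 18.7% in both, on 2208 and 2310 loci.

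**Figure D3:**
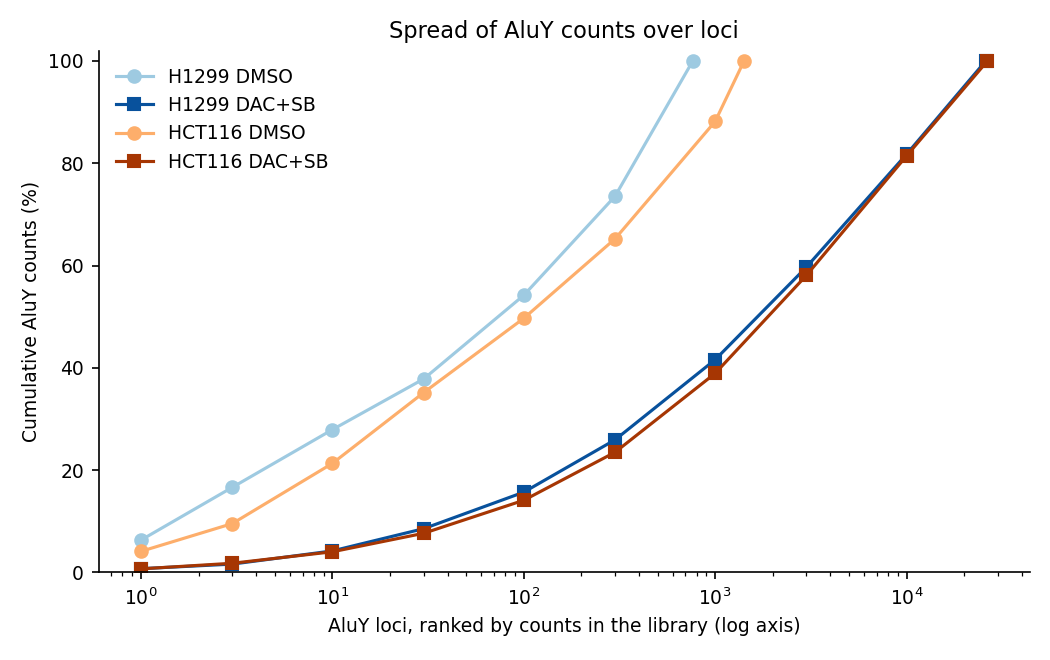
Cumulative share of AluY counts against the number of loci, ranked by counts within each library on a log axis. The 100 top loci held 54.2% of counts in H1299 DMSO and 49.7% in HCT116 DMSO, against 15.7% and 14.1% in the DAC+SB libraries, over the names that each library lists, which differ.

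The DMSO signal of several names lay in the same loci in both lines. AluYd8 locus 6309344 had 111, 319, 62 and 113 counts, and its log2 ratio was 1.57 (1.25 to 1.90) for H1299 and 1.55 (1.09 to 2.02) for HCT116. It held 66.9% and 89.9% of AluYd8 counts in the DMSO libraries. Without it, AluYd8 had a log2 ratio of 3.12 in H1299 and, from 7 DMSO counts, 5.02 in HCT116.

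AluYi6 locus 684561 had 93, 124, 66 and 55 counts, with log2 ratios of 0.46 (0.06 to 0.87) and 0.42 (-0.12 to 0.96). AluYe5 locus 2287938 had 88, 100, 82 and 12 counts, at 0.23 (-0.20 to 0.66) for H1299 and -2.09 (-3.10 to -1.20) for HCT116. These 2 loci were picked as among the highest with DMSO, a choice that favours low ratios at them and higher family ratios without them, as it also does for AluYd8. Without them AluYi6 was at 1.85 and 3.61, and AluYe5 at 3.51 and 4.59. In HCT116 DMSO the 2 loci with most counts were AluYk2 locus 69625, with 145 and 151 counts with DMSO and DAC+SB, a log2 ratio of 0.74 (0.41 to 1.08), and AluYk3 locus 760718, with 109 and 24, a log2 ratio of -1.50 (-2.20 to -0.85). Neither name was listed in H1299 DMSO, and the loci had 45 and 46 counts in H1299 DAC+SB.

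Over position 1 classes that both libraries of a line list, loci with a count numbered 486 with DMSO and 2732 with DAC+SB in H1299, of which 316 were shared. That is 65.0% of the DMSO loci, and loci with a DMSO count held 33.6% of the treated counts. In HCT116, 615 of 5741 treated loci were shared, which is 47.3% of the DMSO loci, and they held 26.7% of the treated counts. These overlaps were not computed over all TE loci, so they are not read as particular to AluY. Among loci with at least 10 counts with DMSO, 3 of 9 in H1299 and 13 of 40 in HCT116 were at least 2-fold higher with DAC+SB, and 1 and 10 were at least 2-fold lower. Over all TE loci at position 1 with that DMSO minimum, 15.4% in H1299 and 49.7% in HCT116 were higher, and 8.97% and 21.1% were lower. These loci were chosen by their DMSO counts, so a lower value after treatment is favoured by the choice.

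The treated loci with most counts were each seen in many cells. AluY locus 6012327 led H1299 DAC+SB with 720 counts in 377 cells and had 386 counts in 205 cells of HCT116 DAC+SB. AluYh7 locus 6189520 had 440 counts in 150 H1299 cells, up to 22 in 1 cell, and 58 counts in HCT116. It held 56.4% of AluYh7 counts in H1299 DAC+SB. AluY locus 5058349 had 435 and 284 counts in the treated libraries of H1299 and HCT116, which is a log2 difference of 0.07 (-0.15 to 0.29) in CPM.

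In HCT116 DAC+SB, AluYk3 locus 6388233 led with 711 counts in 218 cells, after 8 counts with DMSO, a log2 ratio of 7.16 (6.17 to 8.38). It had 147 counts in H1299 DAC+SB. AluY locus 3778958 had 669 counts in 407 HCT116 cells and 116 in H1299, and AluY locus 1595095 had 449 and 205. The HCT116 level of these 3 loci was higher than the H1299 level by 2.96, 3.21 and 1.81 on the log2 scale of CPM. They were picked as the highest of HCT116, so these differences are a description.

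Most abundant AluY loci had counts in both treated lines, at levels that often differed. Of 946 AluY loci with at least 30 counts over the treated libraries, in classes listed in both, 904 (95.6%) had a count in each line, as had 95.5% of 8650 TE loci chosen the same way. In CPM, 597 of the 946 differed by less than 4-fold between the lines. The HCT116 level was at least 4-fold higher at 255 loci (27.0%), against 39.7% of all such TE loci, and the H1299 level at 94 loci (9.94%), against 6.10%. With a minimum of 10 counts set in each library separately, loci numbered 1707 in H1299 DAC+SB and 1911 in HCT116 DAC+SB, and 753 were in both lists, which is 44.1% of the H1299 list and 39.4% of the HCT116 list. For AluS the same minimum gave 3248 and 7742 loci with 2052 shared, or 63.2% and 26.5%. These lists depend on depth, which was lower in HCT116 DAC+SB. Their overlap was not computed over all TE loci, so it is not read as particular to AluY.

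AluY and AluS differed in how the treated lines compared. AluY made up 31.0% (30.9 to 31.2) of AluY and AluS counts in H1299 DAC+SB and 19.7% (19.6 to 19.8) in HCT116 DAC+SB. With DMSO the share was 83.9% in H1299 and 5.26% in HCT116, where AluS stood at 5.24 and 1012 CPM. All 338 AluS counts of H1299 DMSO were of AluSq10, and the 63379 of HCT116 DMSO were of 12 names. The names listed thus differed between the libraries, and the DMSO shares are not read as a difference between the lines. Each share comes from within a library and needs no scaling by its total. The lowest TE class listed had 20 counts in each library, and whether depth affects which names are listed was not tested. Of 20 AluY names with at least 100 counts in the higher treated library, 11 were higher in HCT116 in CPM and 9 in H1299, where 72.0% of all TE families with that minimum were higher in HCT116. AluY names had a median log2 difference (HCT116 minus H1299) of 0.27. Over classes that both treated libraries list, where AluYa8 changed sign, 12 were higher in HCT116 and 8 in H1299, and the median was 0.40. All 16 AluS names were higher in HCT116, with a median of 1.61 and a range of 1.04 to 2.22. A single AluY name, AluYj4 at 1.07, reached the lowest AluS value, and over classes listed in both lines AluYk4 also did, at 1.05. Over all 264 TE families the median was 0.80.

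Within AluY, the names differed in the log2 difference between the treated lines. AluYj4, AluYk3 (0.99), AluYk4 (0.97), AluYm1 (0.88), AluYk2 (0.86) and the family named AluY (0.83) lay highest. AluYe6 (0.60), AluYe5 (0.55), AluYc (0.41), AluYf1 (0.39) and AluYh3 (0.16) came next. AluYi6 (-0.01), AluYg6 (-0.05), AluYc3 (-0.09), AluYb8 (-0.14, -0.23 to -0.05), AluYa5 (-0.17, -0.25 to -0.09) and AluYb9 (-0.21) were near equal in the lines. AluYd8 (-0.94) and AluYh7 (-1.73) were higher in H1299. AluYa8 was at -0.84, but 69 of its 115 H1299 counts were at position 12, which HCT116 did not list. At position 1 its counts were 46 and 40, a log2 difference of 0.48 (-0.17 to 1.12), so no direction is given for it. The counting intervals of neighbours in the family order overlapped, except those of AluYh7 and AluYd8. Without the top locus of each library AluYh7 was at -1.25, whereas AluYd8 was at -1.03, AluYa5 at -0.13 and AluYb8 at -0.08. The order of the middle names changed, with AluYf1 at 0.66, AluYh3 at 0.40, AluYe6 at 0.16 and AluYg6 at -0.27. AluYk3 was at 0.83 and AluYi6 at 0.07. AluYa8 was at -2.06, but its top locus held 31 of its 40 HCT116 counts and the classes of the lines differed. No direction is read from this value either. AluYa5 and AluYb8 together held 6.37% (6.22 to 6.52) of AluY counts in H1299 DAC+SB and 3.42% (3.31 to 3.53) in HCT116 DAC+SB.

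**Figure D4:**
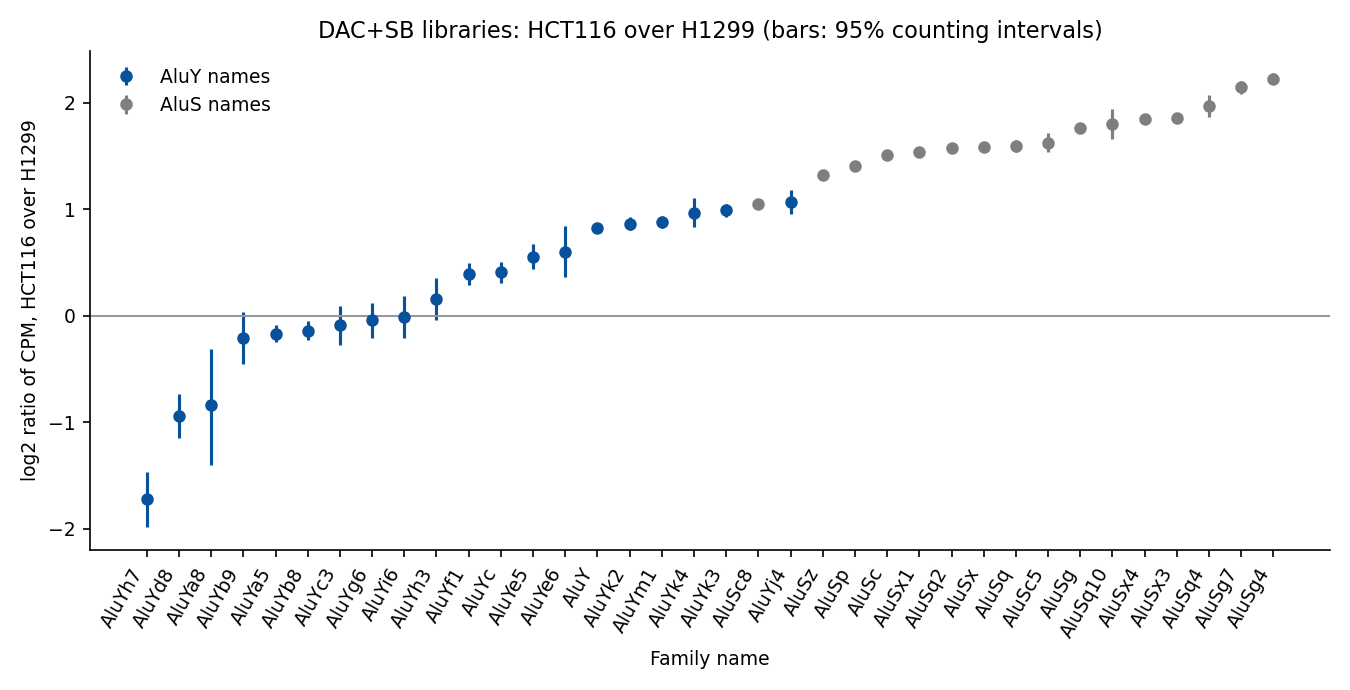
Log2 ratio of CPM in HCT116 DAC+SB over H1299 DAC+SB for the 20 AluY and 16 AluS names that reached 100 counts in the higher library, with 95% counting intervals. AluS names lie between 1.04 and 2.22, and AluY names between -1.73 and 1.07, with AluYa8 summed over classes that the lines do not share.

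Cells were compared after each was thinned to 3300 counts, a depth that 402 cells of HCT116 DAC+SB and none of the rest failed to reach. The share of H1299 cells with an AluY count was 8.50% (7.60 to 9.46) under DMSO and 90.4% (89.4 to 91.3) under DAC+SB, and that of HCT116 cells was 13.9% (12.8 to 15.1) and 90.5% (89.5 to 91.4). The names behind these shares differ between the libraries of a line. Over classes listed in both, the thinned shares were 5.81% (5.07 to 6.63) and 33.4% (31.9 to 35.0) for H1299, and 13.8% (12.7 to 15.0) and 60.5% (58.9 to 62.0) for HCT116, so they were higher with DAC+SB on either basis. At full depth the shares over all listed names were 33.3%, 99.2%, 43.0% and 96.4%, at the median depths given above. No cell type that lacks AluY RNA was analysed here, so free RNA was not measured. AluJ was found in 43 of 3925 thinned HCT116 DAC+SB cells, or 1.10% (0.794 to 1.47). The median thinned AluY count was 4 in H1299 DAC+SB and 5 in HCT116 DAC+SB, and 2.47% and 11.0% of cells had at least 20.

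The upper tail of AluY, like that of AluS, held a larger share of counts in HCT116 DAC+SB. The highest thinned AluY count of a cell was, however, 234 in H1299 DAC+SB and 210 in HCT116 DAC+SB. For AluS it was 491 and 886. The 10% of thinned cells with most AluY counts held 35.0% of AluY counts in H1299 DAC+SB and 43.3% in HCT116 DAC+SB. The corresponding shares were 31.7% and 42.7% for AluS, and 30.4% and 31.3% for LTR12C. At full depth, where the choice favours deep cells, the H1299 cell with most AluY counts had 907 of 12761 counts in AluY, over 293 loci. The corresponding HCT116 cell had 792 of 24361 over 312 loci, where the median HCT116 DAC+SB cell had 8449 counts. Neither cell owed its AluY counts to 1 locus. These cells also had 1934 and 3334 AluS counts, and 133 and 51 LTR12C counts. Across thinned cells of a library, AluY and AluS counts were correlated with a Pearson coefficient of 0.85 and a Spearman coefficient of 0.66 over 3726 cells of H1299 DAC+SB, and of 0.93 and 0.85 over 3925 cells of HCT116 DAC+SB. For AluY and LTR12C counts the Pearson coefficients were 0.21 and 0.05 and the Spearman coefficients 0.29 and 0.13. Cells of a library share its preparation, so these values are descriptions. The Spearman correlation of AluY counts with the mitochondrial share was -0.08 and 0.10, and its part in the result was not tested.

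**Figure D5:**
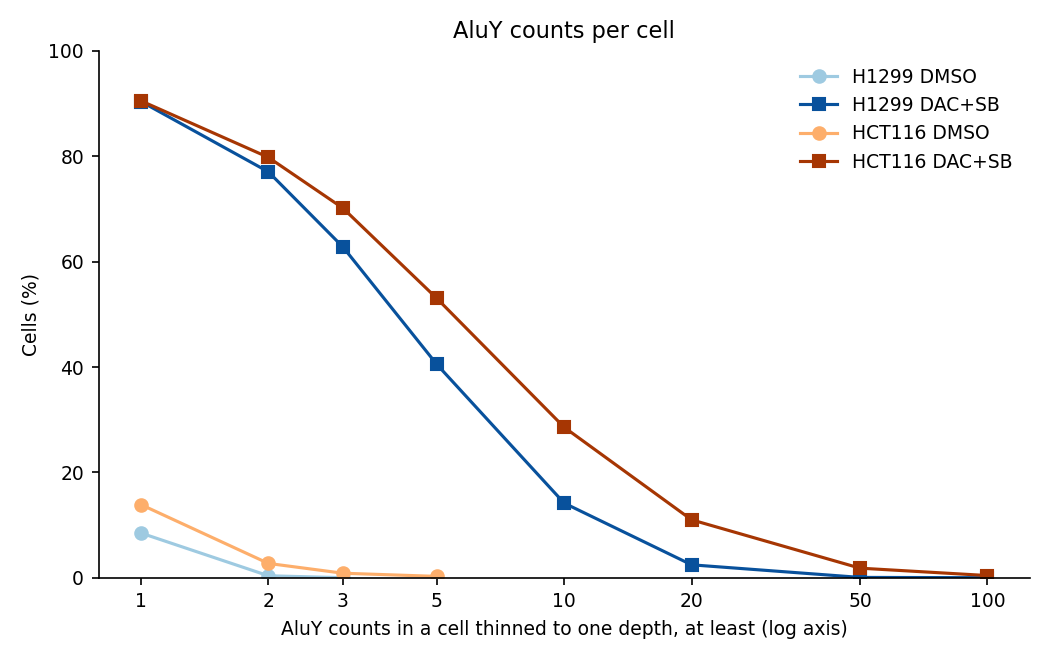
Share of cells with at least a given number of AluY counts after thinning each cell to 3300 counts, with the number of counts on a log axis. The names listed differ between libraries. At 1 count the treated libraries reach 90.4% and 90.5% of cells, and at 20 counts HCT116 DAC+SB stands at 11.0% against 2.47% in H1299 DAC+SB.

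A list of 38 genes was read, whose products make, bind, edit or silence Alu RNA or are parts of the signal recognition particle. All 38 reached 100 counts in the higher library of each line. With a 2-fold limit, 1 was higher and 3 were lower with DAC+SB in H1299, where 18.3% of all genes were higher and 7.34% lower. In HCT116, 1 was higher and 8 were lower, where 16.2% of all genes were higher and 20.0% lower. The share of lower genes in the list was thus near that of all genes in both lines, and that of higher genes was below it. All 38 had over 100 counts with DMSO, the lowest being RN7SL1 (160) in H1299 and IFIH1 (111) in HCT116. Other genes could reach the minimum with DAC+SB only, which favours higher genes among all genes. The share of higher genes is thus not read as particular to the list. The median log2 ratio of the list was -0.37 in H1299 and -0.63 in HCT116, against -0.07 and -0.23 for all genes.

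ADARB1 (GRCh38 chromosome 21, 45073853 to 45226560), which encodes an RNA editing enzyme, was the gene above the limit in both lines, with 438, 1870, 370 and 640 counts and log2 ratios of 2.14 and 1.48. SUV39H1 (chromosome X, 48695554 to 48709012), a histone H3 lysine methyltransferase of heterochromatin, had 765, 149, 968 and 101 counts, at -2.31 and -2.57. POLR3E (chromosome 16, 22297375 to 22335103), a subunit of RNA polymerase III, had 1258, 464, 1789 and 394 counts, at -1.39 and -1.50. DICER1 (chromosome 14, 95086228 to 95158010), the nuclease that matures microRNAs, was at -1.03 and -1.29. SRP14, part of the Alu-binding heterodimer, was at -0.03 in both lines, with 36146, 34309, 31007 and 18850 counts. HNRNPC, which keeps Alu exons out of messenger RNA, was at -0.41 and -0.97, SSB (the La protein, which binds polymerase III transcripts) at 0.12 and 0.36, and MAF1, a repressor of RNA polymerase III, at -0.42 and -0.98. GTF3C6, a subunit of the factor that binds the internal promoter, was at -0.98 and -1.90. SRP19, a signal recognition particle protein, was at -0.34 and 0.49, and at -0.33 and 0.55 with the counts of names that join it to another gene. ADAR and SRP9, chosen after their values were seen, were at -0.71 and -1.66, and at -0.71 and -1.15.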

How the data were processed

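The values are whole-number counts in a gene table and a TE table that the authors deposited, with 1 line for each feature and cell that had a count. The barcode read also carried a molecular identifier, per the labels, but whether identifiers or reads were counted, with which tool and annotation, and how cells were selected was not stated in the sources used here. CASAVA, STAR and GRCh38 (hg38) are named in the submitters' processing notes. Cells were assigned to libraries by the suffix of their names.

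Every cell was used, as the lowest cell had 2086 counts, and no doublet caller was run. For each library, summed counts were scaled to its gene and TE counts together. Locus counts were summed over position numbers. Thinning drew counts without replacement with a fixed seed, per cell to 3300 counts, the smallest 10th percentile of any library in steps of 100, and per library to 38927267. Features whose name joins several genes were left out of gene counts and added in an alternative. Where a gene of the whole table had fewer than 3 counts in a library, 3 were used. Intervals were exact Poisson, Clopper-Pearson or conditional binomial, and the ratio code was tested on simulated data. Python 3.11.15, numpy 2.4.6, pandas 2.3.3 and scipy 1.17.1 were used.

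Families with at least 100 counts in a library were named with every listed value, as were the 3 top loci of each name set in each library, the listed genes past 2-fold in both lines and the 6 others with most counts. Of the genes first listed, 1 is not reported here. The members, lists and rules were chosen with earlier results of these data known. Alternatives changed the denominator, the cells, the loci, the classes, the minimum counts and the thinning.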

Additional observations from a re-analysis of the deposited data

Results flagged for a closer look

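A difference between the lines marked 4 genes of the gene list above. Their DAC+SB to DMSO log2 ratios had opposite signs in the 2 lines, with counting intervals that left out 0. Taken as H1299 minus HCT116, the difference in log2 ratio was -0.83 for SRP19, -1.26 for POLR3B, 1.18 for POLR3GL and -0.51 for POLR3K. POLR3GL, one of a pair of alternative polymerase III subunits, was thus higher with DAC+SB in H1299, at 0.18, and lower in HCT116, and the other 3 genes went the opposite way. With 1 library per group these differences were not tested. No AluY name met this mark.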

How the results depend on the processing

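Of 140 values under an alternative, 90 stayed close to the reported value (within its counting interval or, for counts of loci, genes or names, within 1.5 times), 49 moved and 1 changed sign. That was AluYa8 between the treated lines, at 0.48 over the class listed in both, an alternative chosen after seeing the data. AluY levels, in CPM and in the order of libraries used above, were 41.2, 2378, 91.3 and 4272 without mitochondrial and ribosomal protein genes in the denominator, and 25.5, 1557, 53.8 and 2599 without the top locus. Without the 5% of cells with most counts the treated levels were 1602 and 2669. The HCT116 DAC+SB level was 2558 without cells above 25% mitochondrial counts and 2654 as a mean over cells. With at least 3 counts, AluY loci numbered 66, 4769, 135 and 7896. Without thinning, cells with an AluY count were 33.3%, 99.2%, 43.0% and 96.4%. AluY was 99.8% of AluY and AluJ loci in HCT116 DAC+SB. At a minimum of 30 counts, 38.9% of the H1299 list of loci was shared. At 4-fold, 1 listed gene was lower in H1299, and 0 were higher and 1 lower in HCT116. Also chosen after seeing the data, the AluY share of AluY and AluS counts in HCT116 DAC+SB was 19.6% without the 10 top loci of each name set. Over classes that both libraries of a line list, a choice of the same kind, cells with an AluY count made up 5.81% and 33.4% of the H1299 libraries and 60.5% of HCT116 DAC+SB, and the 10 top loci held 36.3%, 14.6% and 8.49%. The log2 ratios of the summed AluY names stayed within their intervals in both lines under every alternative run. Those of several single names did not. Besides the names given above, without the top locus AluYc3 was at 3.39 in H1299. In HCT116 AluYa5 was then at 3.87, AluYk2 at 3.27 and AluYk3 at 3.24. The locus left out for AluYa5 held 60 of its 267 HCT116 DMSO counts. AluJ was listed in 1 library, so its ratio to DMSO and its share over classes of both treated libraries could not be computed. No paired analysis was possible because each group was 1 library. How far unlisted names limit the sums was not tested, and most AluY loci had 1 count, so single loci are known only roughly.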

Other observations

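Of 224 AluY_short_ loci, 16 had numbers between 651257 and 651296, and these held 73 of 326 counts in H1299 DMSO, 82 of 295 in HCT116 DMSO and 41 of 200 in HCT116 DAC+SB. Loci with a number within 100 of another locus of their name made up 35.2% of AluJb_short_, 14.7% of AluY_short_, 11.1% of AluYk3, 4.10% of AluYa5 and 3.41% of AluYb8 loci, names chosen after seeing the data. What the numbers order was not stated in the sources used here. BC200, the TE name of the RNA of BCYRN1, was listed in H1299 DAC+SB alone, with 295 counts over 73 loci.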
